A study of Mus musculus with 3 samples.

Results

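Glycolysis and the pentose phosphate pathway were described by 35 genes, chosen by name for their roles in glucose uptake, the glycolytic steps, lactate formation and export, the control of these steps, and the pentose phosphate steps. The 35 gene symbols matched 36 of the 55536 annotated genes, since Aldoa is the symbol of 2 gene identifiers. The second Aldoa identifier held 2, 0 and 3 counts in replicates 1, 2 and 3 and was not used. The RNA came from the cytosol of macrophages grown from the bone marrow of C57BL/6J mice, and was sequenced as total RNA after ribosomal RNA had been removed. All cells received 100 ng/ml Lipid A for 12 hours, were washed and left for 12 hours, and received 100 ng/ml Lipid A again for 40 minutes. Lipid A is the membrane anchor of bacterial lipopolysaccharide and acts on the receptor Tlr4. The labels number the 3 libraries as biological replicates, and they form 1 group. Sex and age were not collected per the labels, and the libraries share a donor label, so whether the cultures came from different animals is not known and their spread may be partly technical. Cells without Lipid A, cells stimulated once and the nuclear fraction were not analysed here, so the values below are levels and not responses.

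Glycolysis splits glucose into pyruvate in the cytosol and yields ATP and NADH, and lactate dehydrogenase returns the NADH to NAD+ by turning pyruvate into lactate. The pentose phosphate pathway branches off at glucose 6-phosphate. Its oxidative steps make NADPH, which macrophages spend on the oxidative burst, nitric oxide and glutathione, and its non-oxidative steps exchange sugars with glycolysis. Macrophages exposed to bacterial lipopolysaccharide are known for a high glycolytic flux, in which the hypoxia-inducible factor HIF-1alpha and the regulator PFKFB3 take part.

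The mRNA of pyruvate kinase M, which makes pyruvate, carries 1 of 2 mutually exclusive exons, and the choice sets which enzyme is made. The M1 exon gives an enzyme that is always active and is typical of muscle and brain, and the M2 exon gives an enzyme whose activity is regulated. Both exons are shown because they alone separate the M1 and M2 mRNAs in their coding part. They are the ninth of the 11 exons of Pkm-202 and Pkm-201 and lie on the plus strand of the GRCm38 (mm10) build, at chr9:59675029-59675195 for M1 and chr9:59675568-59675734 for M2. Each has 167 bases, and the 64 bases at which they differ are in capitals.
Pkm M1 exon: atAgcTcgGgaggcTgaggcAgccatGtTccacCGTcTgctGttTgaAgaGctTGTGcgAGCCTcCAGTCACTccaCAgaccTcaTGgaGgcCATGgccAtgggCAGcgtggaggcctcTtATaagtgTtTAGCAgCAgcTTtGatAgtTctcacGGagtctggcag
Pkm M2 exon: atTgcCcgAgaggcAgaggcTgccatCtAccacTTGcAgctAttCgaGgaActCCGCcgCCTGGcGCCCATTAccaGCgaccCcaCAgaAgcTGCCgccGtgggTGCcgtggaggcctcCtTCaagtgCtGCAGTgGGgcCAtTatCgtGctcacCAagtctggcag
The 103 bases in lower case are shared, so only a read that covers a capital tells the exons apart. Pkm-201 and Pkm-202 also differ in length, at 2432 and 2041 bases, so their estimated shares can rest on their ends as well. The M2 transcript Pkm-201 held 83.9%, 82.5% and 83.9% of the gene's transcript TPM in replicates 1, 2 and 3 of the alignment-based table (83.4% ± 0.83, SD, n = 3). The M1 transcript Pkm-202 held 14.5%, 16.9% and 14.1% (15.2% ± 1.5, SD, n = 3). A transcript table made directly from the reads gave 81.8% ± 0.29 for M2 and 15.1% ± 1.6 for M1 (SD, n = 3). M2 was the main form in all 3 libraries and both tables, and the shares of the 2 forms did not overlap.

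TPM, a share of all transcripts, is a level per transcript length, so it can be compared between genes. Nuclear protein-coding genes held 33.3%, 28.1% and 27.7% of the TPM in replicates 1, 2 and 3. The 35 genes together held 0.507%, 0.512% and 0.545% of that protein-coding TPM (0.521% ± 0.021, SD, n = 3). Expected counts summed to 38197192, 46327891 and 38685666, and the 35 genes held 168839, 200901 and 172900 of them. A count of 0 allows up to 3 counts, or 0.0785, 0.0648 and 0.0775 CPM (counts scaled to library size), which covers counting error only. The 8 macrophage markers were all detected, with sums of 4071 to 5638 TPM. Of 7 neutrophil markers 2 were detected, with at most 9.70 TPM summed over the list and Ly6g at 0, and none of 6 erythroid, 3 T cell, 3 B cell and 4 fibroblast markers was detected.

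A gene was called detected at a TPM of at least 1 in all 3 libraries. That held for 32 of the 35 genes, beside 41.4% of all annotated protein-coding genes. Pfkfb1, Aldoc and Slc16a1 stayed under 1 TPM in every library. To place each level, log2(TPM + 1) was taken relative to the library's median over the 11487 protein-coding genes with a mean TPM of at least 0.1, and tested with limma. By an adjusted p under 0.05, 23 of the 35 genes lay above that median gene, where 46.0% of all fitted genes did, and 11 lay below it, where 46.2% of all did. Eno2 was not called (limma, adjusted p = 0.368). The median over the 35 genes was 1.5 log2 units above the median gene. The p-values measure only the spread between these 3 libraries.

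**Figure D1:**
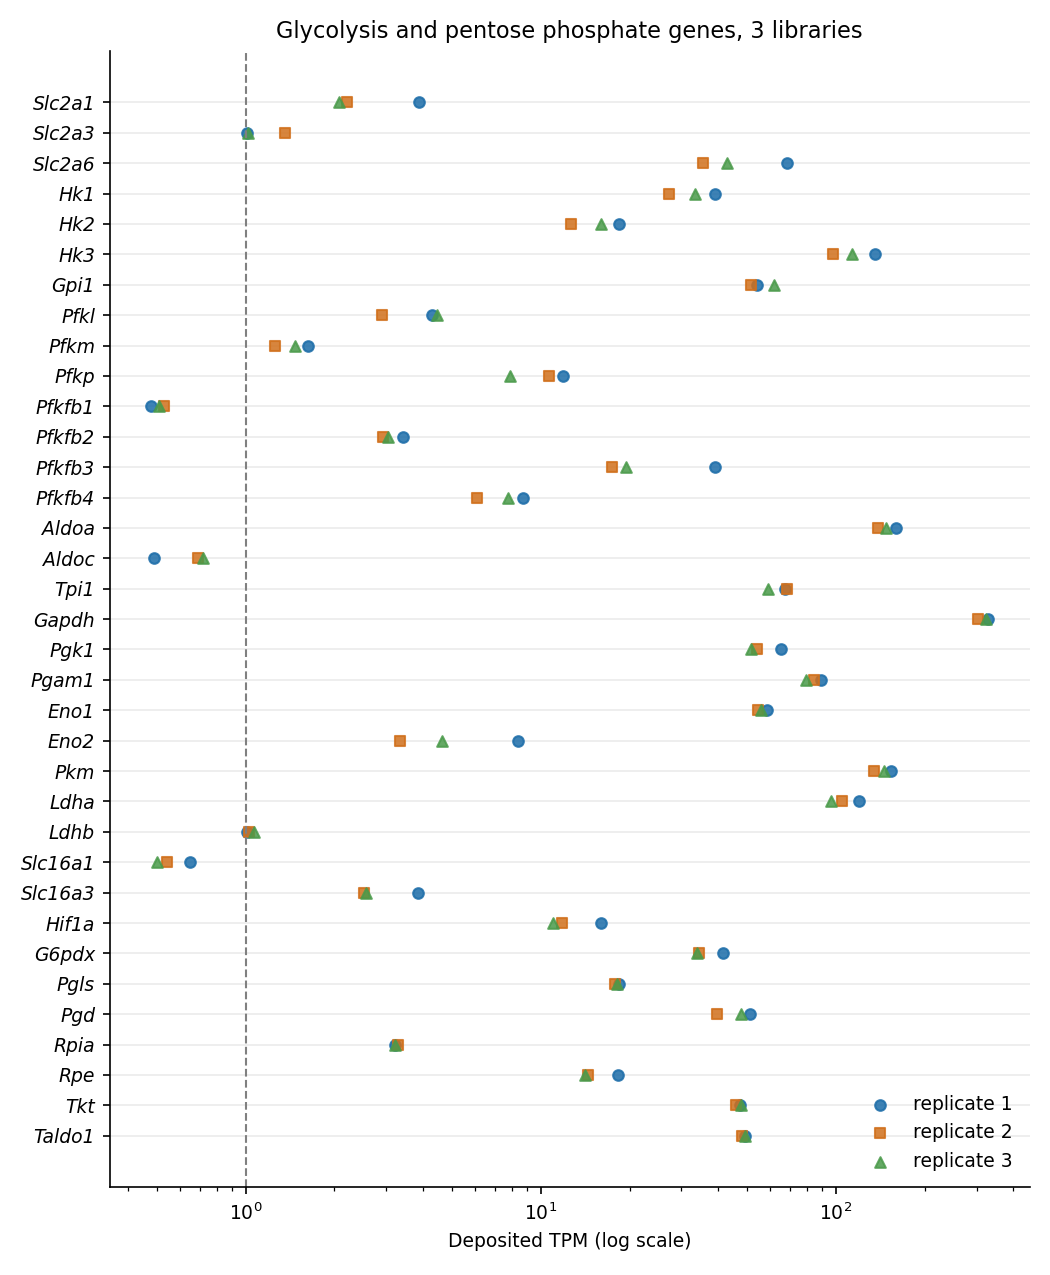
TPM of the 35 genes in each library, on a log axis, from glucose transporters at the top to the pentose phosphate pathway at the bottom; the dashed line is the detection limit of 1 TPM. Gapdh is the highest at 302 to 328 TPM, and Pfkfb1, Aldoc and Slc16a1 lie left of the line in all 3 libraries.

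Glucose entry was measured through 3 transporters. Slc2a6 (chr2:27021363-27027998), which encodes GLUT6, a transporter found mostly on internal membranes, had 68.2, 35.5 and 42.8 TPM in replicates 1, 2 and 3. Slc2a1 (chr4:119108711-119137983), which encodes GLUT1, the usual glucose transporter of the surface, had 3.88, 2.21 and 2.07 TPM. Slc2a3, which encodes the high-affinity transporter GLUT3, had 1.01, 1.36 and 1.02 TPM. Slc2a6 was thus far above the other 2 in every library and held 92.5% ± 1.4 (SD, n = 3) of the summed TPM of the 3 genes. The log2 ratio of Slc2a1 to Slc2a6 was -3.72 ± 0.19 (SD, n = 3), with the same sign in 3 of 3 libraries. In the fit against the median gene Slc2a6 lay 2.83 ± 0.12 log2 units above (SE), and Slc2a1 and Slc2a3 lay below at -0.89 ± 0.10 and -1.67 ± 0.096. Slc2a1 and Slc2a3 were not separated beyond their spread, since their log2 ratio was 1.28, 0.44 and 0.60 in the 3 libraries.

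Hexokinase locks glucose in the cell as glucose 6-phosphate. Hk3 (chr13:55005985-55021385), the hexokinase typical of myeloid cells, had 136, 97.6 and 114 TPM in replicates 1, 2 and 3. Hk1 (chr10:62268855-62379908), the broadly used form bound to mitochondria, had 39.0, 27.1 and 33.2 TPM. Hk2 (chr6:82725025-82774454), the form induced in many proliferating or stimulated cells, had 18.4, 12.7 and 16.0 TPM. The order Hk3, Hk1, Hk2 held in every library, and the ranges of the 3 genes did not overlap. The ratios were tight, with log2 Hk3/Hk1 of 1.78 ± 0.032 and log2 Hk2/Hk1 of -1.03 ± 0.016 (SD, n = 3). Hk3 accounted for 70.4% ± 0.60 of hexokinase TPM, Hk1 for 20.1% ± 0.33 and Hk2 for 9.52% ± 0.27 (SD, n = 3). The level of Hk2 depended on the table. A short annotated Hk2 RNA, of 594 bases in 2 exons at chr6:82725062-82726309, held 32.5% ± 3.0 of the Hk2 transcript TPM but 3.34% ± 0.48 of its estimated counts in the alignment-based table. In the read-based table this short RNA was listed at 0, and the Hk2 level there was 0.712 of that in the gene table, with both rescaled to nuclear protein-coding genes.

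Gpi1, the isomerase that turns glucose 6-phosphate into fructose 6-phosphate, had 54.2, 51.6 and 62.0 TPM. Of its transcript TPM 57.8% ± 7.8 was on the coding transcript of 18 exons and 26.9% ± 6.9 on an RNA of 933 bases in 8 exons annotated as a target of nonsense-mediated decay (SD, n = 3). By estimated counts the share of that shorter RNA was 10.6% ± 3.0 (SD, n = 3).

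Phosphofructokinase-1 makes the committed step of glycolysis and was the lowest step of the main chain from hexokinase to pyruvate kinase, at 17.9, 14.9 and 13.8 TPM summed over its 3 genes. The platelet-type gene Pfkp (chr13:6579768-6648777) had 11.9, 10.7 and 7.89 TPM. The liver-type gene Pfkl had 4.29, 2.91 and 4.44 TPM, and the muscle-type gene Pfkm had 1.63, 1.26 and 1.47 TPM. Pfkp was the highest of the 3 in each library, with 65.3% ± 7.5 of their TPM (SD, n = 3). Replicate 3 had the lowest Pfkp and the highest Pfkl, so the log2 ratio Pfkl/Pfkp ran from -1.58 in replicate 2 to -0.71 in replicate 3. Its mean of -1.19 ± 0.44 (SD, n = 3) was beyond the spread with all 3 libraries but not when replicate 1 was left out, at -1.15. Both Pfkp and Pfkm overlap a gene on the opposite strand. Pitrm1 held 81.4% as many counts as Pfkp and Senp1 467% as many as Pfkm. Whether the counting used strand is not given in the sources used here, so the levels of Pfkp and Pfkm are uncertain by an amount that was not tested.

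The PFKFB enzymes make and remove fructose 2,6-bisphosphate, the strongest activator of phosphofructokinase-1. Pfkfb3 (chr2:11471433-11554077), whose product mainly makes this activator, had 39.0, 17.5 and 19.5 TPM in replicates 1, 2 and 3. Pfkfb4 had 8.74, 6.10 and 7.77 TPM and Pfkfb2 had 3.41, 2.93 and 3.05 TPM. Pfkfb1, the liver and muscle gene, had 0.48, 0.53 and 0.51 TPM and 33 to 43 counts. Pfkfb3 led in all 3 libraries with 67.8% ± 6.7 of the family's TPM (SD, n = 3), and replicate 1 was the high library. The log2 ratio Pfkfb3/Pfkfb4 was 2.04 in replicate 1 and 1.38 and 1.22 in replicates 2 and 3. Pfkfb1 overlaps Apex2 and Pfkfb2 overlaps Yod1 on the opposite strand, with 682% and 94.5% as many counts, and the part of these genes in the low values was not tested.

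From aldolase onward most steps rested on 1 gene each. Aldoa (chr7:126795234-126800751), the aldolase of muscle and most other cells, had 159, 139 and 148 TPM, while the brain form Aldoc had 0.49, 0.69 and 0.72 TPM. Aldoa therefore held 99.6% ± 0.11 of aldolase TPM (SD, n = 3). Tpi1, which interconverts the triose phosphates, had 67.2, 68.1 and 58.9 TPM. Gapdh (chr6:125161715-125166467), which makes the NADH of glycolysis, had 328, 302 and 322 TPM and was the highest of the 35 genes. It ranked 95 among the 9118 detected protein-coding genes and lay 5.56 ± 0.089 log2 units above the median gene (SE, limma adjusted p = 1.4e-09). Aldoa, next in the order, was lower by 1.09 ± 0.046 log2 units (SD, n = 3).

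The ATP-forming and final steps were lower than Gapdh but still high. Pgk1, the first ATP-forming kinase, had 65.5, 54.1 and 51.7 TPM, and Pgam1, the mutase that follows it, had 89.4, 84.6 and 79.1 TPM. Eno1, the common enolase, had 58.3, 54.4 and 56.0 TPM. Eno2 (chr6:124760053-124769673), known as the neuronal enolase, had 8.36, 3.35 and 4.63 TPM, with replicate 1 the high library, and was below Eno1 in every library. Eno1 held 91.3% ± 3.5 of enolase TPM (SD, n = 3). Pkm (chr9:59656368-59679375) had 154, 134 and 146 TPM, and its M1 and M2 exons are those printed above. Pkm and Aldoa were close, at a log2 difference of 0.042 ± 0.013 (SD, n = 3) with Aldoa above in 3 of 3 libraries.

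**Figure D2:**
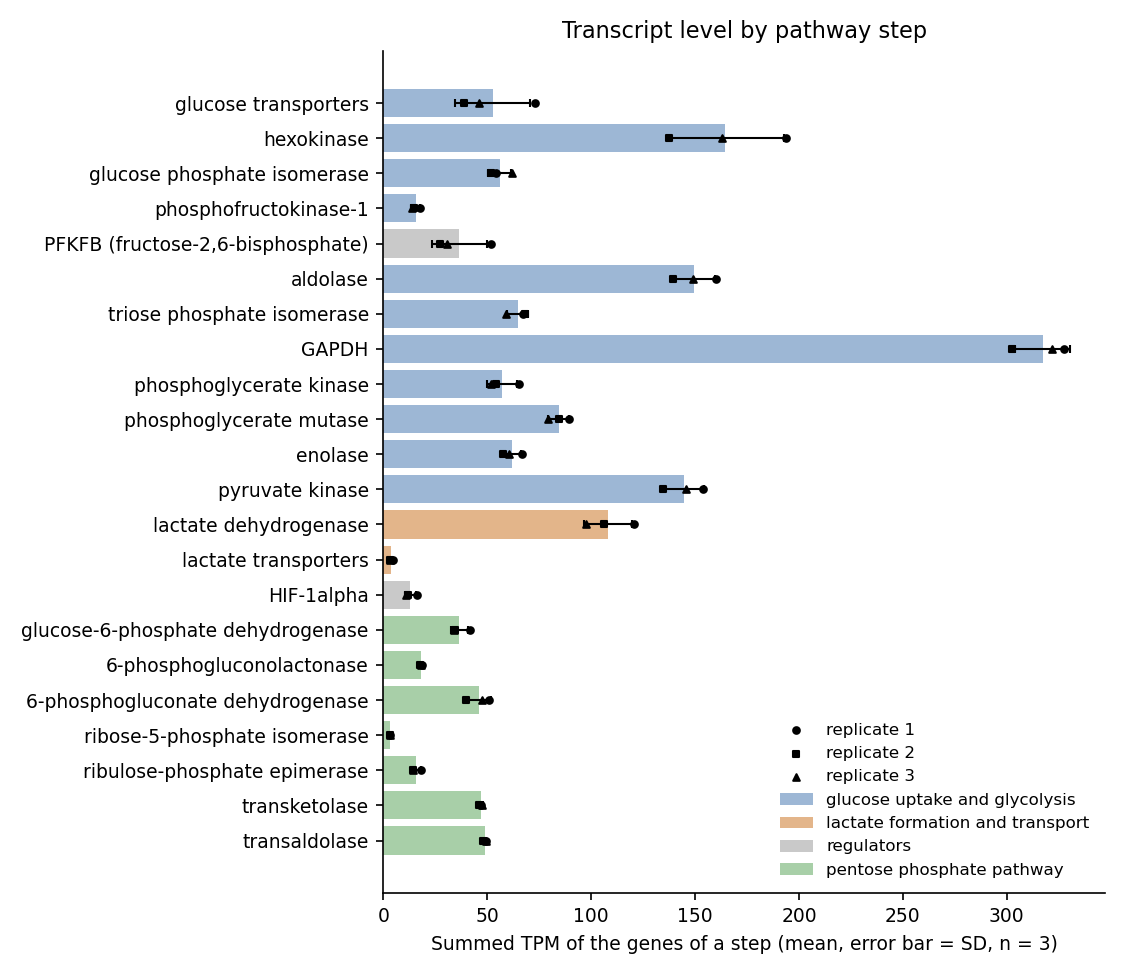
Summed TPM of the genes of each pathway step (bars, mean of 3 libraries; error bars, SD; symbols, the libraries), from glucose transport at the top to transaldolase at the bottom. The GAPDH, hexokinase, aldolase and pyruvate kinase steps are the tallest, and the lactate transporter and ribose-5-phosphate isomerase steps are the shortest at 3.53 and 3.23 TPM. The lactate transporter bar sums Slc16a1 and Slc16a3 only and leaves out Slc16a7, which had a mean of 17.8 TPM.

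Lactate formation was dominated by Ldha (chr7:46841475-46855627), the subunit that favours pyruvate to lactate, with 119, 105 and 96.4 TPM. Ldhb, the heart-type subunit, had 1.01, 1.03 and 1.07 TPM and 36.9 to 57.6 counts, just above the detection limit. Ldha held 99.0% ± 0.13 of lactate dehydrogenase TPM, and the log2 ratio Ldha/Ldhb was 5.72 ± 0.17 (SD, n = 3). A pseudogene nearly identical to Ldhb held 15.4% as many counts as Ldhb itself, so the Ldhb level is uncertain. Of the lactate transporters in the set of 35, Slc16a3, which encodes the lactate exporter MCT4, had 3.84, 2.52 and 2.55 TPM, and Slc16a1, which encodes MCT1, had 0.65, 0.54 and 0.50 TPM. Slc16a3 was above Slc16a1 in 3 of 3 libraries at a log2 ratio of 1.33 ± 0.19 (SD, n = 3). Both of these lay below the median gene, at -0.78 ± 0.080 and -2.11 ± 0.071 log2 units (SE).

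Hif1a (chr12:73901375-73947530), the oxygen-regulated subunit of the factor HIF-1 that drives many glycolytic genes, had 16.1, 11.8 and 11.0 TPM. It lay 1.03 ± 0.081 log2 units above the median gene (SE, limma adjusted p = 2.9e-06). HIF-1alpha protein is controlled mainly by its breakdown, which these data do not measure.

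In the oxidative branch of the pentose phosphate pathway, G6pdx (chrX:74409483-74429194), which makes the first NADPH and sets the entry into the pathway, had 41.5, 34.4 and 33.8 TPM. Pgls, the lactonase that follows, had 18.5, 17.8 and 18.1 TPM, and Pgd, which makes the second NADPH, had 51.0, 39.7 and 47.6 TPM. Pgls was the lowest of the 3 in each library, at a log2 ratio to G6pdx of -0.97 ± 0.14 (SD, n = 3). Pgd was above G6pdx in 3 of 3 libraries at a log2 ratio of 0.32 ± 0.14 (SD, n = 3). That difference was not beyond its spread when replicate 1 was left out, at 0.34.

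In the non-oxidative branch, Rpia, the isomerase that makes ribose 5-phosphate, had 3.20, 3.28 and 3.22 TPM. Rpe, the epimerase that makes xylulose 5-phosphate, had 18.3, 14.5 and 14.1 TPM. Tkt and Taldo1, the transketolase and transaldolase that return carbon to glycolysis, had 47.2, 46.0 and 47.6 TPM and 49.1, 48.0 and 49.2 TPM. Rpia was the low point of the branch, at a log2 ratio to Rpe of -1.96 ± 0.20 (SD, n = 3). Tkt and Taldo1 stood within 0.058 log2 units of each other in every library, with Taldo1 above in 3 of 3. The sign of this small difference turned in the read-based table, at 0.024, so no order between the 2 genes was established.

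Ratios within the pathway were compared over 19 pairs of genes that share a step or act in neighbouring steps. All 19 had the same sign in 3 of 3 libraries, and 18 were beyond their spread, meaning a mean log2 ratio over 2 SD. Slc2a1/Slc2a3 was the exception. The 18 include Tkt/Taldo1, whose sign turned in the read-based table. How often pairs of other genes pass this rule was not computed, so the counts describe these pairs only. With 3 libraries the exact sign-flip permutation test, two-sided, cannot give a p below 0.25, and it gave 0.25 for every pair. Between neighbours in the order of all 35 levels, 9 of 34 differences were beyond their spread. These included Gapdh over Aldoa, Pkm over Hk3 and Ldha over Pgam1. The other 25 neighbours, such as Tpi1, Pgk1, Eno1 and Gpi1 among themselves, did not differ beyond their spread. The order Pkm over Hk3 did not hold in every library of the read-based table, rescaled to nuclear protein-coding genes. Pkm and Hk3 had 448 and 456 TPM there in replicate 1, 444 and 340 in replicate 2 and 492 and 450 in replicate 3.

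**Figure D3:**
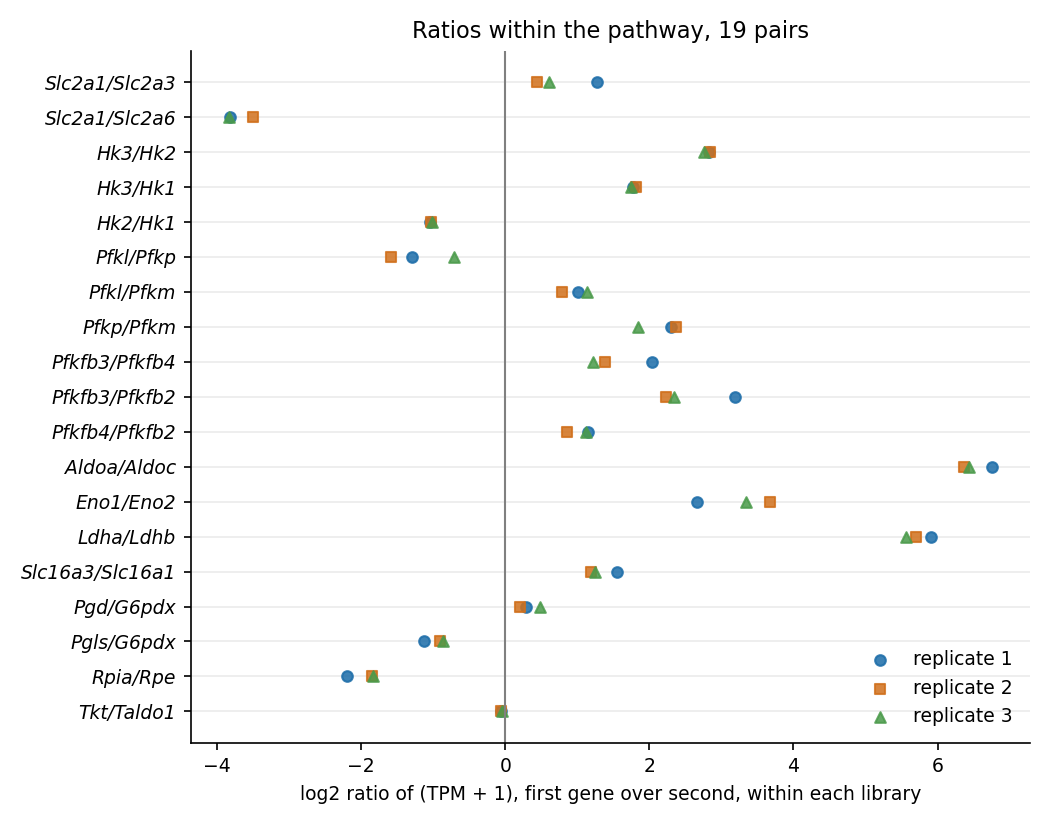
log2 ratio of (TPM + 1) of the first gene over the second in each library, for 19 pairs; the vertical line marks equal levels. The symbols of a pair all lie on the same side of the line, from Slc2a1/Slc2a6 at -3.72 to Aldoa/Aldoc at 6.52 in the mean.

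The annotated transcripts added detail that gene levels hide. In 30 of 35 genes the same transcript led in the alignment-based and the read-based table, and in 9 genes a single transcript held at least 90% of the TPM in both, among them Tpi1, Pgk1, Pgam1, Eno1 and Ldha. Tkt was the only gene of the 35 with under 50% of its TPM on transcripts annotated as coding in both tables. The same counts over all genes were not made, so whether they are usual in these libraries is not known. Tkt-209, annotated as a processed transcript without a reading frame, held 76.6%, 77.4% and 79.9% in the alignment-based table and 83.6% ± 2.0 (SD, n = 3) in the read-based table. The coding Tkt-201 held 20.3% ± 1.7 and 15.3% ± 2.1 (SD, n = 3). Most of Tkt-209 lies within Tkt-201, while a larger part of Tkt-201 lies outside Tkt-209. Tkt-209 (chr14:30557609-30573624, 1962 bases, 14 exons) shares 12 exons with the same bounds and 1877 of its bases with Tkt-201 (chr14:30549131-30574720, 3223 bases, 14 exons). Tkt-201 starts further upstream and has 1346 bases outside Tkt-209, of which 1096 follow the end of Tkt-209, while Tkt-209 has 85 bases of its own. The split between them rests on these bases.

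Other genes were divided between coding forms or differed between the tables. Hk3 was split between coding transcripts of 19 exons (3219 bases) and 18 exons (2945 bases), at 34.6% ± 6.9 and 39.3% ± 4.0 in the alignment-based table and 50.8% ± 9.9 and 26.4% ± 5.0 in the read-based table (SD, n = 3), so its leading transcript was not settled. An Hk3 transcript annotated for nonsense-mediated decay held 17.1% ± 3.8 and 5.77% ± 0.85 (SD, n = 3). Slc2a6 had 80.0% ± 6.6 on its coding transcript of 10 exons and 8.58% ± 2.4 on a processed transcript of 9 exons in the alignment-based table (SD, n = 3). A Slc2a1 transcript annotated for decay had 10.4% ± 5.2 in the alignment-based and 34.9% ± 2.3 in the read-based table (SD, n = 3), and the ranges of the 2 tables did not overlap. Gapdh divided between the coding Gapdh-203 at 57.0% ± 3.5 and Gapdh-202 at 40.6% ± 1.6 (SD, n = 3).

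**Figure D4:**
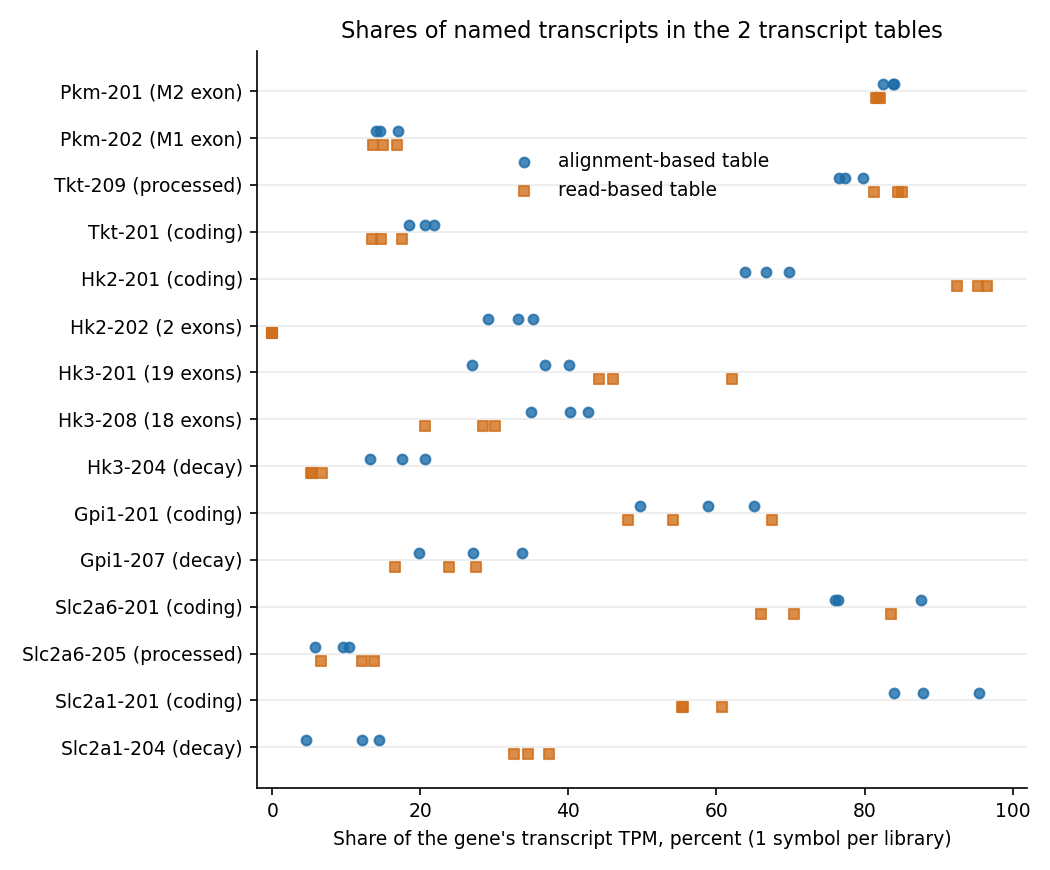
Share of a gene's transcript TPM held by 15 named transcripts, in percent, with 1 symbol per library and table. Pkm-201 with the M2 exon lies between 81.5% and 84.0% in both tables, Tkt-209 leads Tkt-201 in both, and the Hk2 RNA of 2 exons is at 29.2% to 35.2% in the alignment-based table and at 0 in the read-based table.

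Spread between the libraries was small for most of the genes. The biological coefficient of variation, the relative spread between replicates beyond counting noise as edgeR estimates it, had a median of 0.119 over the 35 genes and 0.144 over all 12752 genes in the fit. These 2 medians were not matched for expression level. With replicate 2 left out they were 0.121 over the 35 genes and 0.128 over all 13674 genes then in the fit. With all 3 libraries the coefficient was lowest for G6pdx at 0.0996. It was highest for Aldoc, Ldhb and Pfkfb1 at 0.294, 0.291 and 0.273, which had few counts. In deposited TPM, replicate 1 was the highest library for 25 of the 35 genes. The same count over all genes was not made. Replicate 1 was also higher over the 9106 detected nuclear protein-coding genes, by a median of 0.232 log2 units against the other 2. After rescaling to the TPM of nuclear protein-coding genes it was the highest for 10, and replicate 3 for 18. Differences between libraries are therefore given relative to the median of 9106 detected nuclear protein-coding genes, as log2 TPM less the mean of the other 2 libraries. On that scale 3 of the 32 detected genes were past 1.5-fold in replicate 1, beside 2.17% of all genes. They were Eno2 at 0.85, Pfkfb3 at 0.85 and Slc2a1 at 0.63 log2 units, all higher in that replicate. In replicate 2 only Eno2 was past 1.5-fold on this scale, at -0.76, beside 3.42% of all, and in replicate 3 none was, beside 3.01% of all. Slc2a6 in replicate 1, at 0.58, lay just inside the limit. The median over the 32 genes was 0.019, -0.014 and 0.072 in the 3 replicates. With TMM-normalized counts the replicate 1 values were 0.73 for Eno2, 0.86 for Pfkfb3, 0.58 for Slc2a1 and 0.60 for Slc2a6, so Slc2a1 and Slc2a6 changed sides of the limit. In the read-based table Slc2a1 at 0.68 and Slc2a6 at 0.65 were both past it in replicate 1, with Eno2 and Pfkfb3. In replicate 2 of that table Pfkl at -0.62 and Pfkfb3 at -0.60 were past it as well as Eno2 at -0.88.

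**Figure D5:**
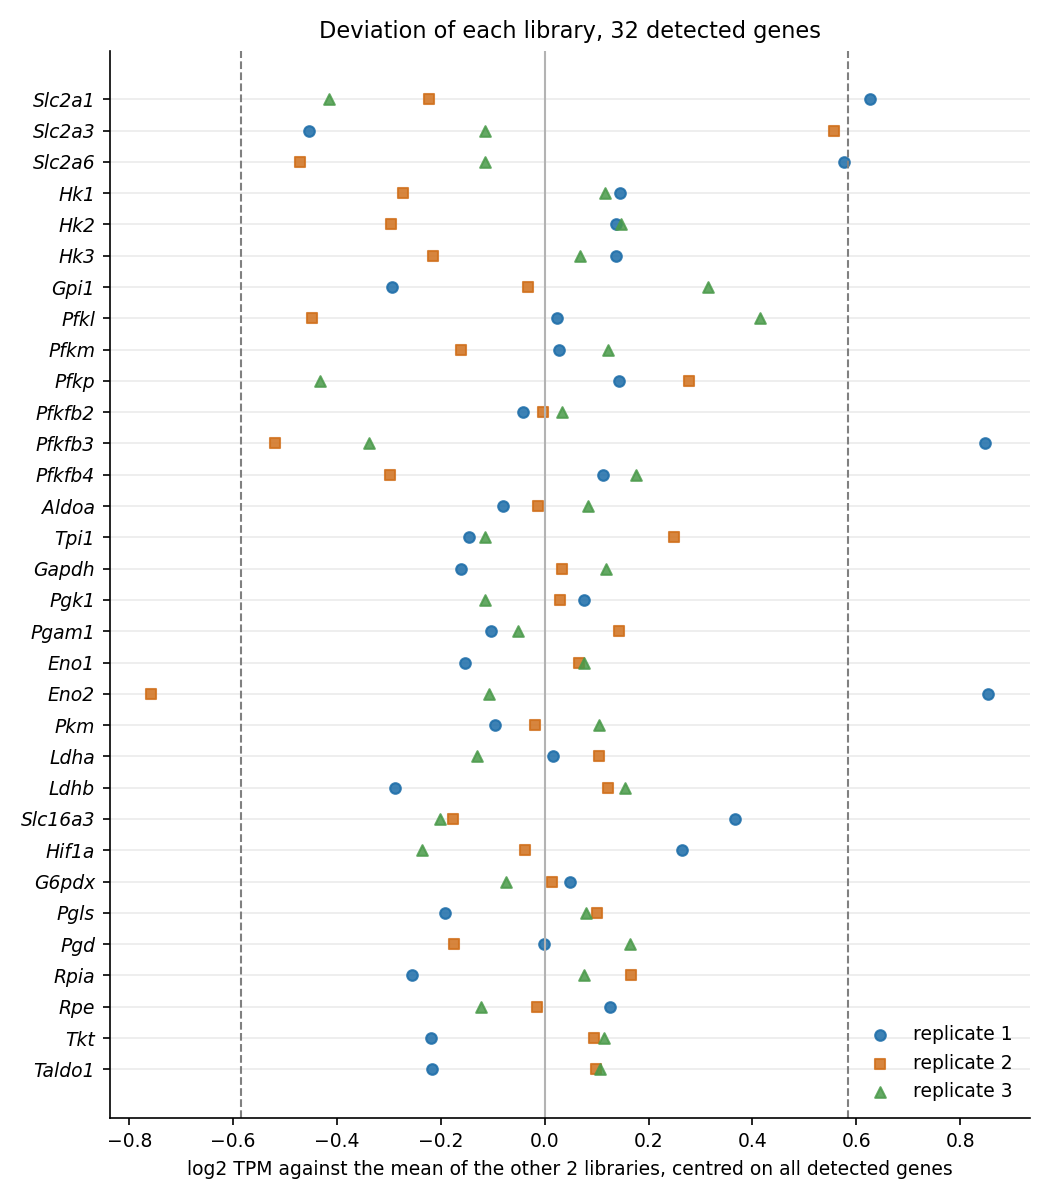
Deviation of each library from the mean of the other 2 (log2 TPM, centred on 9106 detected nuclear protein-coding genes) for the 32 detected genes; dashed lines mark 1.5-fold either way. Slc2a1, Pfkfb3 and Eno2 lie right of the lines in replicate 1 and Eno2 left of them in replicate 2.

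A wider list held 47 further genes of and around the pathway, all found in the annotation. Of these 20 of 47 were detected, beside 41.4% of all annotated protein-coding genes, and 23 were under 1 TPM in every library. Of the 28 that entered the fit 6 lay above the median gene, where 46.0% of all fitted genes did, and 19 below it, where 46.2% of all did. Their median was -0.519 log2 units. The 6 with the highest mean were Bsg at 69.8 ± 0.84 TPM, Slc16a7 at 17.8 ± 0.58, Pdha1 at 15.5 ± 1.7, Egln2 at 12.2 ± 1.6, Arnt at 11.7 ± 1.3 and Prps2 at 6.88 ± 0.18 TPM (SD, n = 3). Bsg encodes basigin, the partner protein that brings the lactate transporters MCT1 and MCT4 to the surface. Slc16a7 encodes another transporter of the family, MCT2. Slc16a7 was above Slc16a3 and Slc16a1 in every library, at 18.5, 17.4 and 17.6 TPM, and lay 1.48 ± 0.067 log2 units above the median gene (SE). Pdha1 belongs to the enzyme that passes pyruvate to the mitochondrion, Egln2 is a prolyl hydroxylase that marks HIF-alpha proteins for breakdown, Arnt is the partner subunit of HIF-1alpha, and Prps2 makes phosphoribosyl pyrophosphate from ribose 5-phosphate. Among the genes under 1 TPM in every library were the hydroxylase Egln3, the enolase Eno4 and the HIF-2alpha gene Epas1. Their highest values were 0.02, 0.17 and 0.17 TPM.

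Near copies in the genome could take reads from some of the genes. Of transcripts at least 95% identical to a member over at least 200 bases, Gapdh had 78 genes, 75 of them pseudogenes, which together held 4.19% as many counts as Gapdh. The 4 copies of Pgk1 held 6.51% and the 3 of Eno1 1.94% as many counts as the gene. Gm49759, which overlaps Pkm on the same strand, held 1.37% as many counts as Pkm. Opposite-strand neighbours also reached G6pdx and Rpe, where Ikbkg and Kansl1l held 29.2% and 26.8% as many counts. Spsb2 opposite Tpi1 held 11.9% and Iffo1 opposite Gapdh 3.1% as many counts as the gene.

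The promoters were searched for the letters of 2 known motifs, as a sequence feature that the choice of genes did not use. RefSeq promoters of build GRCm38.p6, from 250 bases before to 50 after each start, matched 34 of the 35 genes (not Slc2a3), with 52 promoters, since some genes have several starts. The core ACGTG, which HIF-1 binds, was present on either strand in 22 of these 52 promoters, or 42.3%. It was present in 21.1% of the 20150 promoters of annotated protein-coding genes and in 26.6% of the 9337 promoters of detected ones. Promoters of a gene can overlap, as for Aldoa, so a match can count more than once. Counted by gene, 18 of the 34 had the core in a promoter. That held for 3903 of 16522 annotated and 2250 of 7304 detected protein-coding genes. The pattern GGGNNNNNCC, a loose form of the NF-kB site, was in 69.2% of the 52 promoters, 58.1% of all and 67.4% of those of detected genes. Ldha had the promoter with the most ACGTG matches, while its other listed promoter had 0. The 250 bases before that start, at chr7:46845554-46845803, plus strand, are shown with the matches in capitals.
Ldha promoter: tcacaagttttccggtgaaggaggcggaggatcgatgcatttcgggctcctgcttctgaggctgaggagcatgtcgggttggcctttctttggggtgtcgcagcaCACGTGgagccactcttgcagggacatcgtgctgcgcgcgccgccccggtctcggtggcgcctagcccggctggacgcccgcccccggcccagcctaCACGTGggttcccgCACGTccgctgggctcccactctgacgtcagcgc
There are 5 matches at 3 places, because CACGTG reads ACGTG on both strands. A match is a description of the letters and not a measured site, and binding was not measured in these libraries.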

How the data were processed

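Cytosolic total RNA was measured in 3 libraries of 1 group. The deposited gene tables hold expected counts, TPM and FPKM, with bounds of TPM that were not used in a result, and 2 deposited transcript tables per library hold TPM and estimated counts, from transcriptome alignments (alignment-based) or from the reads (read-based). Per the file headers and accompanying texts the build is mm10 with annotation M21; names of aligner and counting tools were not given there or in the labels. Rows naming no gene held 0.356%, 0.125% and 0.104% of expected counts and were left out.

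Levels and ratios used log2(TPM + 1), which understates ratios of low genes. limma 3.58.1 (intercept with trend, two-sided, Benjamini-Hochberg over 11487 genes) placed genes against the median gene. edgeR 4.0.16 with TMM and filterByExpr gave the coefficient of variation from the expected counts after rounding, with DESeq2 1.42.0 as an alternative; R was 4.3.3 and Python 3.11.15. Near copies were found with BLAST 2.17.0. The scripts were tested on simulated data. Alternatives were thresholds, pseudocounts, filters, FPKM, rescaled TPM, the read-based table, estimated counts, and each library left out.

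All 35 genes are named, with the 6 highest of the wider list and the alphabetically first 4 of those under 1 TPM in every library (1 of these is not reported here). Of the transcripts with at least 10% of their gene's TPM in either table, only those of Pkm, Tkt, Hk2, Hk3, Gpi1, Gapdh, Slc2a6 and Slc2a1 are described, a choice made after their values were seen. Opposite-strand neighbours were named after their counts were seen. The genes, lists and tests were chosen with earlier results of these data known. The cell type check used marker lists for macrophages, neutrophils, erythroid, T, B and fibroblast cells.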

Additional observations from a re-analysis of the deposited data

How the results depend on the processing

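The 32 detected genes became 33, 29 and 23 at TPM limits of 0.5, 2 and 5, 35 with rescaled TPM and 28 in the read-based table. A limit of 1 is looser after rescaling, which multiplied TPM by 3.00, 3.56 and 3.62 in replicates 1, 2 and 3. It is stricter in the read-based table, where values were lower, as for Gapdh at a mean of 125 against 317 TPM. The number of the 35 genes above and below the median gene stayed at 23 and 11 with pseudocounts of 0.1 and 5, FPKM, rescaled TPM, the read-based table and no trend in limma. FPKM and rescaled TPM differ from TPM by a constant factor per library. Subtracting the library's median largely removes that factor, so these settings could change little. The numbers above and below were 23 and 11 to 12 with a library left out, and 21 and 10 of 32 over genes detected in all libraries. With no filter on low values the median gene is one listed near 0, and the counts became 35 and 0. Of the pairs, Tkt/Taldo1 turned from -0.05 to 0.024 in the read-based table; the cause was not tested. Leaving out each library gave log2 ratios of 0.52 to 0.94 for Slc2a1/Slc2a3, which passed the spread rule without replicate 1, of -1.44 to -0.999 for Pfkl/Pfkp and of 0.25 to 0.39 for Pgd/G6pdx, which both failed it without replicate 1, with 2 libraries left. The median coefficient of variation was 0.121 to 0.135 with a library left out. In the read-based table the median deviation of replicates 2 and 3 was 0.032 and 0.024. The Pkm M2 share was 81.8% in the read-based table and 86.2% by estimated counts, where the M1 share was 12.9%. No paired analysis was possible because there is 1 group. Depth limits Pfkfb1, Aldoc and Ldhb most.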
